A study of Homo sapiens with 2 samples.

Results

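The genes described here encode the plasminogen activators, the receptor of one of them, their substrate and a pair of serpins that inhibit them. They were chosen by name in the deposited gene table: PLAU, PLAT, PLAUR, PLG, SERPINE2 and SERPINB2, which are 6 of its 50868 genes. RNA was sequenced from cells labelled HepG2, a widely used human liver cancer line, in 2 cultures with 1 library each. The resistant culture carried the genotype label of sorafenib resistance and was grown under sorafenib, an oral multikinase inhibitor. Selection began at 2.5 µM, was raised by 0.5 µM at a time and ended at 7 µM, at which the cells proliferated. The parental culture was labelled wild type and received no treatment. The sources used here do not say whether the resistant culture is a clone or a mixed population. A single library stands for each culture, so the conditions could not be tested against each other, and every interval below covers counting error only, not the variation between cultures.

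Plasminogen is a liver-made zymogen that circulates in blood and is cut to plasmin, the protease that dissolves fibrin and degrades matrix proteins. Urokinase and tissue-type plasminogen activator make this cut, and the urokinase receptor, a lipid-anchored protein of the LY6 family fold, holds urokinase at the cell surface. Serpins trap the activators in covalent complexes, which receptors of the LDL receptor family then clear. In carcinomas the urokinase arm is known for its part in invasion and matrix turnover.

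The counts summed to 16811907 in the resistant and 18067146 in the parental library. Genes that define the hepatocyte were at or near 0 in the libraries of both cultures: 8 of 10 listed markers, ALB and AFP among them, had 0 counts in both. The 10 together had 4 counts in the resistant and 3 in the parental library. HepG2 cells are known to express ALB and AFP, so these counts go against the HepG2 label of both libraries, and resistant and parental stand below for the libraries so labelled. Markers of other cell types were read from lists of 10 fibroblast, 8 endothelial and 8 leukocyte genes. The summed level of the fibroblast list was 438 CPM (counts scaled to library size with TMM factors) in the resistant and 423 CPM in the parental library, with 6 of 10 measured and COL1A2 and PDGFRA at 0 counts in both. Its 1 marker past 1.5-fold was LUM, a matrix proteoglycan gene, with 216 counts in the resistant and 93 in the parental library. Of the 6 measured, 5 were higher and 1 was lower in the resistant library. The lower one was COL3A1, the most abundant of the list, with 3267 counts in the resistant and 3941 in the parental library. Endothelial markers summed to 19.2 and 14.5 CPM in the resistant and parental libraries, with 4 of 8 measured and KDR and CLDN5 at 0 counts in both. Leukocyte markers summed to 22.9 CPM in the resistant and 15.6 CPM in the parental library, with 2 of 8 measured and PTPRC, CD3E, MS4A1 and LYZ at 0 counts in both. The 2 measured were CD68, with 156 counts in the resistant and 98 in the parental library and past 1.5-fold, and CSF1R, with 223 and 176. Fewer cells that express a gene and less RNA per cell cannot be told apart in such bulk libraries.

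Of the 6 genes, 4 were measured, meaning that the larger of their CPM values was at least 1. SERPINE2 and PLAT were higher in the resistant library, by 1.67-fold and 1.54-fold. PLAUR was nearly level, PLAU had few counts, and PLG and SERPINB2 were at or near 0. Ratios are given as log2(CPM + 1) in the resistant minus that in the parental library, a scale on which differences of low genes come out too small. Genes are said to pass a rule on this scale, while folds are CPM ratios without a pseudocount. A low gene can thus have a fold past a limit and still not pass the rule. None of the 4 reached the size rule of 1 or -1 on this scale: 0 were higher, against 1.31% of the 14686 measured genes, and 0 were lower, against 0.994% of them, or 2.30% in either direction. By a smaller limit of 1.5-fold on the same scale, 2 of the 4 were higher and 0 were lower, against 4.84% of measured genes higher and 3.81% lower. This count was 1 with DESeq2 size factors, without mitochondrial genes or with a pseudocount of 5 CPM, each time without PLAT, and 0 with the deposited FPKM and a pseudocount of 1. The interval of the fold excluded 1 for the same 2 genes, as it did for 42.2% of measured genes. The median log2 ratio of the 4 was 0.26, beside -0.0018 over all measured genes.

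**Figure D1:**
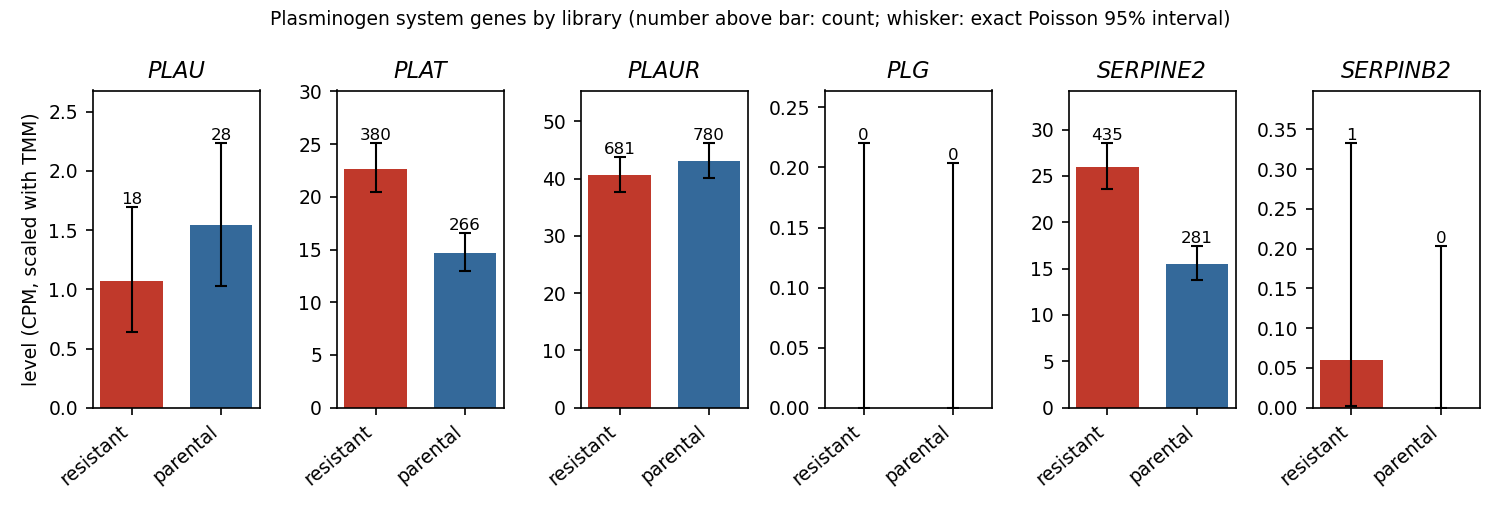
Level of each of the 6 genes in CPM (vertical axes, each with its own scale from 0) in the resistant (red) and parental (blue) library, with the count above and an exact Poisson 95% interval as whisker. The intervals are apart for PLAT and SERPINE2 and overlap for PLAU and PLAUR, while PLG is at 0 and SERPINB2 has 1 count in the resistant library only.

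PLG, which encodes plasminogen itself (ENSG00000122194; chromosome 6, 160702238 to 160753315 on the plus strand, GRCh38), had 0 counts in the resistant library and 0 in the parental library. The limit set by 0 counts, taken as 3 counts, was 0.179 CPM in the resistant and 0.166 CPM in the parental library. PLGLB1 and PLGLB2 are partial copies of PLG on chromosome 2 between which reads can be split. They had 2 and 3 counts in the resistant library and 4 and 2 in the parental library. The transcript of the zymogen, which hepatocytes make, was not detectable at this depth in libraries that also lacked the hepatocyte markers above. Of the wider kringle family LPA and F2 (prothrombin) also had 0 counts in both libraries, and HGF had 2 in the resistant and 0 in the parental library. MST1, which encodes a growth factor related to plasminogen and has near-identical copies that make its count uncertain, had 55 and 33 counts in the resistant and parental libraries.

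PLAU encodes urokinase, the activator that acts mainly at the cell surface (ENSG00000122861; chromosome 10, 73909177 to 73917497, plus strand). It had 18 counts in the resistant and 28 in the parental library, or 1.07 CPM (0.636 to 1.70) and 1.55 CPM (1.03 to 2.23). The fold of resistant over parental was 0.695 (0.362 to 1.30), an interval that includes both no difference and a difference past the limit of 1.5-fold in the lower direction. A log2 ratio at least as far from 0 as that of PLAU, -0.30, was found for 26.7% of measured genes. C10orf55, which overlaps PLAU on the opposite strand, had 0 counts in both libraries.

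PLAT encodes tissue-type plasminogen activator, the activator best known from fibrin clots and the vessel wall (ENSG00000104368; chromosome 8, 42175233 to 42207724, minus strand). It had 380 counts in the resistant and 266 in the parental library, at levels of 22.7 CPM (20.4 to 25.1) and 14.7 CPM (13.0 to 16.6). PLAT was thus the more abundant activator transcript in both libraries, and the 2 intervals do not overlap. The fold was 1.54 (1.32 to 1.81) with a log2 ratio of 0.59, at or beyond which lay 8.42% of measured genes. This value sits at the edge of the 1.5-fold limit, and it was under that limit with DESeq2 size factors, at a log2 ratio of 0.58, and with the deposited FPKM, at 0.39. CDH5, an endothelial cadherin gene and the 1 endothelial marker past the size rule, had 72 counts in the resistant and 20 in the parental library. EGFL7, the most abundant of that list, had 210 counts in the resistant and 193 in the parental library, and TEK had 22 and 17. Other markers of the list lay the other way, with ERG at 11 counts in the resistant and 19 in the parental library. VWF at 0 and 5 and PECAM1 at 7 and 8 did so too, but were not measured. The part of endothelial or other cells in the values of PLAT and SERPINE2 was not tested.

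PLAUR encodes the urokinase receptor (ENSG00000011422; chromosome 19, 43646095 to 43670547, minus strand). Its counts were 681 in the resistant and 780 in the parental library, or 40.6 CPM (37.6 to 43.8) and 43.0 CPM (40.1 to 46.2). The intervals overlap, and the fold of 0.944 (0.850 to 1.05) includes 1. Its log2 ratio was -0.08, and 71.0% of measured genes lay at least as far from 0. The counts were deep enough for the interval to leave out a difference of 1.5-fold between these 2 libraries in either direction.

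SERPINE2 encodes protease nexin-1, a secreted and matrix-bound serpin that inhibits thrombin, urokinase and plasmin (ENSG00000135919; chromosome 2, 223975112 to 224039319, minus strand). It had 435 counts in the resistant and 281 in the parental library. The levels were 26.0 CPM (23.6 to 28.5) and 15.5 CPM (13.7 to 17.4), and these intervals do not overlap. The fold was 1.67 (1.44 to 1.95) and the log2 ratio 0.71, the highest of the 4 measured genes. A log2 ratio at least as far from 0 was found for 5.62% of measured genes. With the deposited FPKM and a pseudocount of 1 the log2 ratio was 0.46, under the 1.5-fold limit.

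SERPINB2 encodes plasminogen activator inhibitor type 2, a largely intracellular serpin of the B clade that monocytes and keratinocytes make in quantity (ENSG00000197632; chromosome 18, 63871692 to 63903890, plus strand). It had 1 count in the resistant and 0 in the parental library, which is under the floor of 3 counts in both, and no fold is given. SERPINB10, which shares exons with it, had 0 counts in both libraries. No other of the 6 genes shares exons on its strand with another annotated gene.

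**Figure D2:**
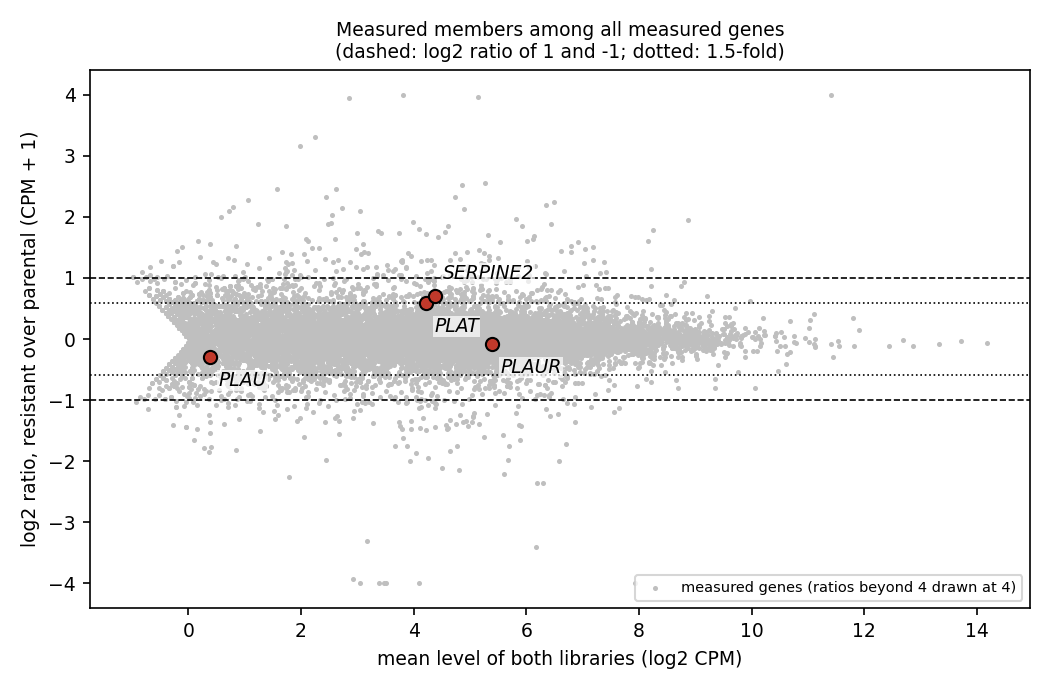
Log2 ratio of resistant over parental (CPM + 1, vertical axis) against the mean level of both libraries (log2 CPM, horizontal axis), with the 4 measured genes in red and the other measured genes in grey. SERPINE2 and PLAT lie just above the dotted line of 1.5-fold and below the dashed line of 1, and PLAU lies near the low end of the levels.

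The order of levels per transcript length was read from the deposited FPKM, which scales fragments by transcript length and library depth. PLAUR stood highest at 4.72 FPKM (4.37 to 5.09) in the resistant and 5.03 FPKM (4.68 to 5.39) in the parental library. PLAT followed at 2.16 FPKM (1.95 to 2.39) in the resistant and 1.41 FPKM (1.24 to 1.59) in the parental library. SERPINE2 stood at 2.16 FPKM (1.96 to 2.37) in the resistant and 1.30 FPKM (1.15 to 1.46) in the parental library, so PLAT and SERPINE2 do not differ beyond counting error in either library. PLAU was far below them at 0.231 FPKM (0.137 to 0.365) and 0.334 FPKM (0.222 to 0.483) in the resistant and parental libraries. PLAUR exceeded 57.5% of measured genes by FPKM in the resistant and 59.3% in the parental library. PLAT exceeded 36.3% in the resistant and 26.6% in the parental library, and SERPINE2 36.3% and 24.9%. PLAU exceeded 4.51% of measured genes in the resistant and 7.02% in the parental library. None of the genes was therefore among the abundant transcripts of these libraries. Together the 6 genes took 1515 counts in the resistant library, 0.00901% of the total (Wilson 95% interval 0.00857 to 0.00948). In the parental library they took 1355 counts, 0.00750% of the total (0.00711 to 0.00791).

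The balance between the genes was compared by the ratio of their counts within each library, which does not depend on the scaling between libraries. For 6 pairs the ratio in the resistant library was set over that in the parental library, with an exact conditional 95% interval. Per count of PLAUR, SERPINE2 had 0.639 counts in the resistant and 0.360 in the parental library, a 1.77-fold difference (1.47 to 2.14). PLAT had 0.558 counts per count of PLAUR in the resistant and 0.341 in the parental library, a 1.64-fold difference (1.35 to 1.98). The inhibitor SERPINE2 and the activator PLAT thus stood higher relative to the urokinase receptor in the resistant library. Between themselves they kept a ratio of 1.14 in the resistant and 1.06 in the parental library, and the 1.08-fold difference (0.867 to 1.35) is within counting error. PLAU stood at 0.0474 counts per count of PLAT in the resistant and 0.105 in the parental library, 0.451-fold (0.230 to 0.863). For PLAU against PLAUR the difference of 0.736-fold (0.380 to 1.39) is within counting error. SERPINE2 had 24.2 counts per count of PLAU in the resistant and 10.0 in the parental library, 2.41-fold (1.26 to 4.71). The intervals were not adjusted for the number of pairs.

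**Figure D3:**
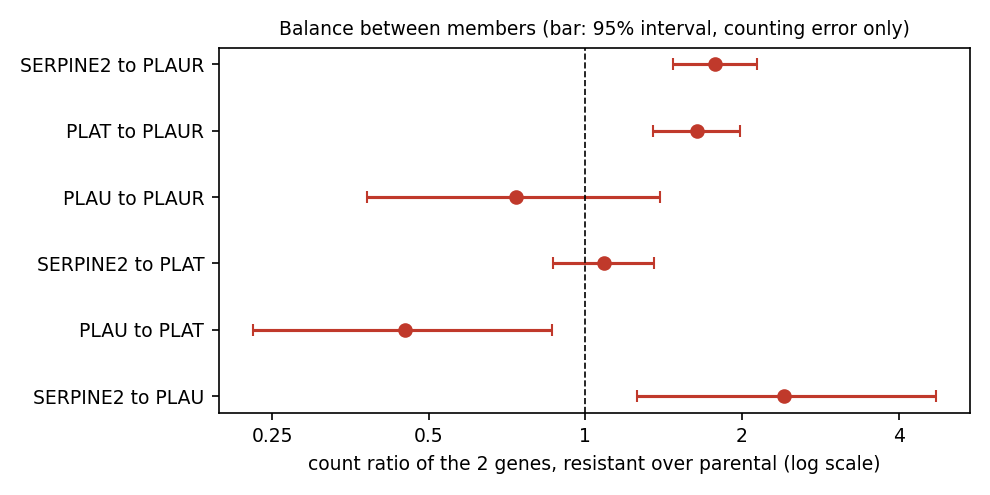
Ratio of the counts of 2 genes in the resistant library over the same ratio in the parental library (log scale), with 95% intervals for counting error. SERPINE2 and PLAT against PLAUR lie at 1.77 and 1.64 with intervals above 1, while the intervals of SERPINE2 to PLAT and PLAU to PLAUR include 1.

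The authors' deposited table gave log2 fold changes of 0.73 for SERPINE2, 0.62 for PLAT, -0.09 for PLAUR and -0.53 for PLAU. None of them was marked UP or DOWN in the authors' deposited table, and PLG and SERPINB2 had no comparison there. That table rests on the same 2 libraries.

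The sequence around the annotated start is shown for genes that stand for the different behaviours above: SERPINE2, the gene with the highest ratio, PLAUR, the most abundant and nearly level, PLAU with few counts, and SERPINB2 with 1 count. PLAU and SERPINE2 have 2 RefSeq windows each, of which the one shown for PLAU holds the matches of that gene and the one shown for SERPINE2 holds more of them. Each window runs from 250 bases before to 50 bases after a RefSeq transcript start (GRCh38.p14), 5′ to 3′ on the strand of the gene. SERPINE2 is at chr2:224038591-224038890 (minus strand), PLAUR at chr19:43670120-43670419 (minus strand), PLAU at chr10:73910882-73911181 (plus strand) and SERPINB2 at chr18:63887455-63887754 (plus strand). Capitals mark matches on either strand to the AP-1 motif TGANTCA, the GC box GGGCGG, the ETS motif CCGGAA or the TATA box TATAAA.
SERPINE2: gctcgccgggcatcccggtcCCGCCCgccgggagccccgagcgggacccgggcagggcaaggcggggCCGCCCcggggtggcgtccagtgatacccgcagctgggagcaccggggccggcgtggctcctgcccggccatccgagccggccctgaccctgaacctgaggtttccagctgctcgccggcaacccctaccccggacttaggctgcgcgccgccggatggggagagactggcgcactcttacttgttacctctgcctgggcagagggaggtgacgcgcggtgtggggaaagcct
PLAUR: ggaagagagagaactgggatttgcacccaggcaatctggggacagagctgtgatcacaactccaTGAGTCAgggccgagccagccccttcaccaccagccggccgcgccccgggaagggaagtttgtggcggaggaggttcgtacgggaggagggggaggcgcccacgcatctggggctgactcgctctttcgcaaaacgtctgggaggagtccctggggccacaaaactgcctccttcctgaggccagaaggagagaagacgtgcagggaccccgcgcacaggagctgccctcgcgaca
PLAU: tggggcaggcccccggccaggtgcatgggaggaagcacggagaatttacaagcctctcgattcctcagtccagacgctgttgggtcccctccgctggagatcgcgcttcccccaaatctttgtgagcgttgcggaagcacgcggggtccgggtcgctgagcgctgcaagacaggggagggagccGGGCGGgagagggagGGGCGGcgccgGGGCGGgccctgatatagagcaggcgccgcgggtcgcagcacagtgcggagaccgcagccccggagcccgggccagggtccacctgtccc
SERPINB2: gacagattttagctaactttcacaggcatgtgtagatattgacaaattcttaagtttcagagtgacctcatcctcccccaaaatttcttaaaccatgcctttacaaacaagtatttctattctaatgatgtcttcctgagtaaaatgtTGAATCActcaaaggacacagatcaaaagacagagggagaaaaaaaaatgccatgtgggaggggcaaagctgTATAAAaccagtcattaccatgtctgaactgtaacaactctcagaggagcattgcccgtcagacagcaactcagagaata
The PLAUR window held 1 AP-1 match, TGAGTCA, with its first base at -186 from the start. The SERPINB2 window held an AP-1 match, TGAATCA, at -102 and a TATA box at -30. The PLAU window held 3 GC boxes at -66, -51 and -40, and the SERPINE2 window 2 GC boxes on the opposite strand at -230 and -183. The other SERPINE2 window, at chr2:224031429-224031728 (minus strand), held a GC box at -50, and the other PLAU window, at chr10:73910360-73910659 (plus strand), held no match. Of 35116 RefSeq windows of this length, 7.71% held the AP-1 motif, 45.0% the GC box, 17.2% the ETS motif and 11.5% the TATA box. A match is a run of letters and no evidence that a factor binds there in these cells.

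Transcription factors known for activity at the PLAU and PLAUR promoters, of the AP-1, ETS, NF-kappa-B and SP families, were all measured (15 of 15). Their median log2 ratio was 0.03 and none passed the size rule, with 8 positive and 7 negative. Past 1.5-fold on the scale of log2(CPM + 1) were 2, both higher, beside 4.84% of measured genes higher and 3.81% lower. FOSL1, an AP-1 subunit gene, had 111 counts in the resistant and 55 in the parental library, 2.18-fold (1.57 to 3.07). JUN, which encodes a dimer partner of it, had 590 and 416 counts in the resistant and parental libraries, 1.53-fold (1.35 to 1.74). FOSB was at 37 and 24 counts in the resistant and parental libraries, with a log2 ratio of 0.46 and an interval of the fold from 0.971 to 2.91. FOSL2 was the most abundant of the list, at 315 CPM in the resistant and 278 CPM in the parental library, 1.13-fold (1.09 to 1.18). The AP-1 subunit genes JUNB and JUND lay the other way, at 0.779-fold (0.742 to 0.817) and 0.742-fold (0.703 to 0.784). Both had more counts than FOSL1 or JUN in each library, so the AP-1 genes of the list did not share a direction.

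Beyond the 6 genes, 89 genes were examined by role, and 63 were measured. They cover the plasminogen system, factors known at the PLAU and PLAUR promoters, and the LY6 and kringle families. Of the 63, 2 were higher and 1 was lower by the size rule, which is 4.76% beside the 2.30% of all measured genes. At 1.5-fold 9 were higher and 3 lower, 19.0% beside 8.65%. Of the 9, ITGB3 and MMP14 reached the minimum of 1 CPM in the resistant library only. The lists were also chosen with earlier results of these data known. Neither the shares nor the direction is therefore a result about these genes as a set. Their median log2 ratio was 0.05.

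Of 7 other inhibitors of the activators or of plasmin examined, 3 were measured and none passed 1.5-fold on the scale of log2(CPM + 1). SERPINI1, which encodes neuroserpin, an inhibitor of tissue-type plasminogen activator, had 395 counts in the resistant and 366 in the parental library, 1.17-fold (1.01 to 1.35). SERPING1, the C1 inhibitor gene, had 39 and 26 counts in the resistant and parental libraries, 1.62-fold (0.962 to 2.77), with a log2 ratio of 0.45. SERPINF2, the gene of alpha-2-antiplasmin, had 49 and 48 counts in the resistant and parental libraries. Across the serpin family as a whole, 11 of 33 genes examined were measured, SERPINE2 among them, and 19 had 0 counts in both libraries. Of the 11, 9 had a positive log2 ratio, the median was 0.27 and none passed the size rule. SERPINB7 reached the minimum of 1 CPM in the resistant library only, so the direction of the measured genes is no result about the family. Only SERPINE2 and SERPINB5 of the 11 were past 1.5-fold on the scale of log2(CPM + 1), both higher, beside 4.84% of measured genes higher. SERPINB5, the maspin gene, lies in the same cluster of chromosome 18 as SERPINB2 and was at 82.4 CPM in the resistant and 50.8 CPM in the parental library, 1.62-fold (1.49 to 1.77). SERPINB7 and SERPINB8 of that cluster had log2 ratios of 0.43 and -0.37, with intervals of the fold that include 1.

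Proteins that bind plasminogen at the cell surface had 7 of 9 genes measured and a median log2 ratio of -0.07, and their levels differed widely. ITGB2, an integrin subunit gene and the lowest measured, was at 1.37 CPM in the resistant and 1.27 CPM in the parental library, and ITGAM and CLEC3B were not measured. ENO1, the glycolytic enzyme enolase that also docks plasminogen, was at 3470 CPM in the resistant and 3744 CPM in the parental library, 0.927-fold (0.917 to 0.937). ANXA2, the annexin that forms a plasminogen receptor with S100A10, was at 576 and 634 CPM in the resistant and parental libraries, 0.908-fold (0.884 to 0.933). Reads of ENO1, ANXA2 and HMGB1 can be split with pseudogenes. The member farthest from 0 was HMGB1, a chromatin protein that binds plasminogen when outside the cell. It had 1750 counts in the resistant and 3529 in the parental library, 0.536-fold (0.506 to 0.568), past 1.5-fold but within the size rule.

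Partners of the urokinase receptor and the receptors that clear its complexes had 17 of 19 measured genes and a median log2 ratio of -0.07. SORL1, a sorting receptor of the LDL receptor family that binds urokinase and its receptor, was the 1 gene past the size rule. It had 157 counts in the resistant and 364 in the parental library, 0.466-fold (0.384 to 0.564), with a log2 ratio of -1.02. CAV1, the caveolin gene, was at 216 CPM in the resistant and 121 CPM in the parental library, 1.79-fold (1.70 to 1.89). ITGB3, an integrin subunit gene, had 17 and 5 counts in the resistant and parental libraries, 3.68-fold (1.30 to 12.7). EGFR, a signalling partner of the receptor and the most abundant gene of the list, was at 3993 CPM in the resistant and 3137 CPM in the parental library.

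Substrates of plasmin or urokinase included the other 2 genes past the size rule, with 12 of 17 measured, 10 positive and a median log2 ratio of 0.33. MMP14 reached the minimum of 1 CPM in the resistant library only, and MMP9, with 0 counts in the resistant and 4 in the parental library, was not measured. The direction of the measured genes is therefore no result about the list. CDCP1, a transmembrane protein gene whose product plasmin and related proteases cut, had 230 counts in the resistant and 82 in the parental library, 3.03-fold (2.35 to 3.95). THBS1, the thrombospondin-1 gene, was at 99.1 CPM in the resistant and 42.8 CPM in the parental library. LAMB3, a laminin chain gene and the most abundant of the list, was at 140 and 125 CPM in the resistant and parental libraries, 1.12-fold (1.06 to 1.19). Most matrix metalloproteinase genes of the list were near 0: MMP3 and MMP10 had 0 counts in both libraries, and MMP1 had 1 in the resistant and 0 in the parental library. The 2 measured ones lay in opposite directions: MMP14, a membrane-bound protease gene, was at 3.78-fold (1.68 to 9.61) and MMP13, a collagenase gene, at 0.423-fold (0.231 to 0.744). Other proteases that activate pro-urokinase or plasminogen had 4 of 9 measured, none past 1.5-fold, and a median of -0.20. ST14, the matriptase gene, had 87 counts in the resistant and 124 in the parental library, 0.758-fold (0.570 to 1.01). CTSB, the cathepsin B gene, was at 0.869-fold (0.821 to 0.920), and F12, the gene of coagulation factor XII, at 0.830-fold (0.545 to 1.26).

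**Figure D4:**
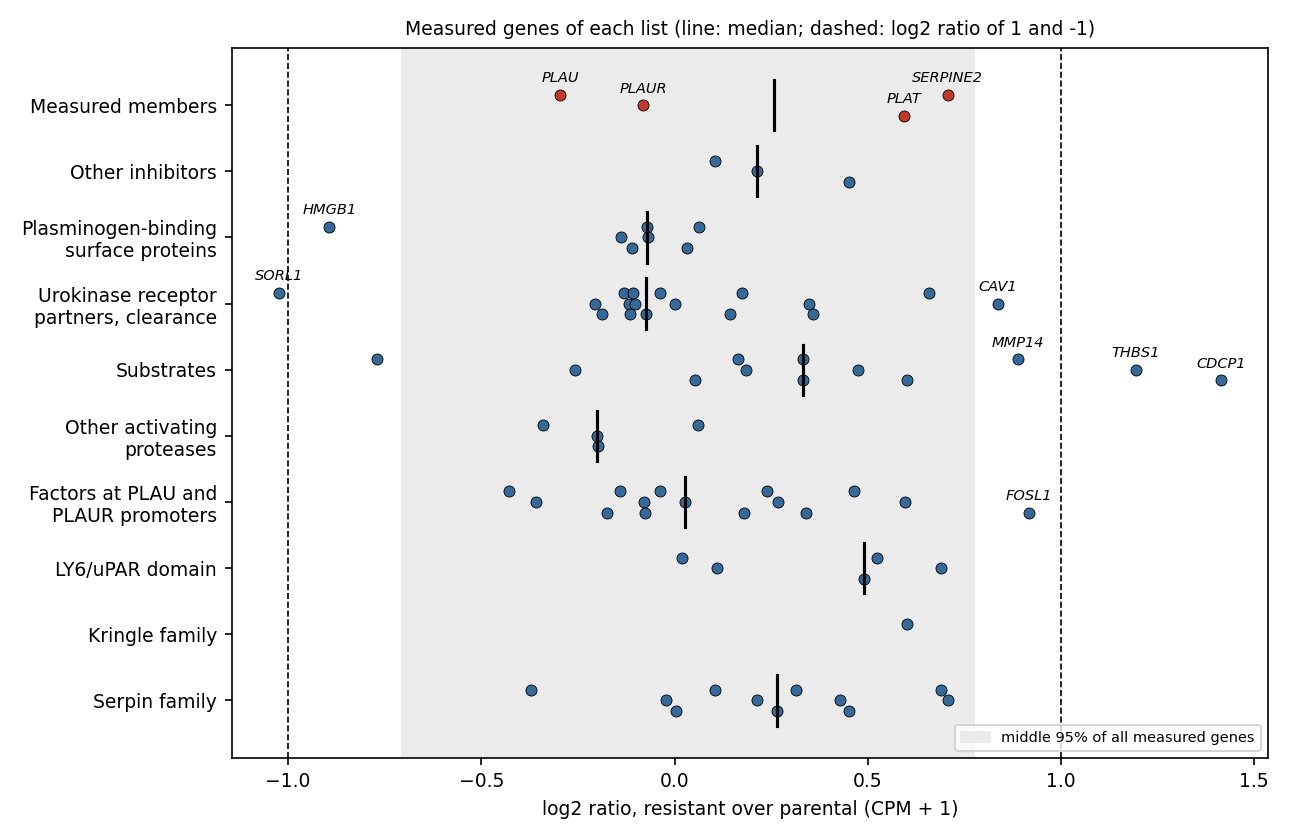
Log2 ratio of resistant over parental (CPM + 1, horizontal axis) for each measured gene of the listed roles, with the median of each row as a line and the middle 95% of all measured genes in grey. The 4 measured genes at the top lie within the grey band, while CDCP1 and THBS1 among substrates and SORL1 among partners lie beyond the dashed lines; the serpin row repeats SERPINE2, and MST1 is in 2 rows.

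Relatives of the urokinase receptor in the LY6 domain family had 5 of 9 measured genes. CD177 and LYPD1 reached the minimum of 1 CPM in the resistant library only, so the direction of the measured genes is no result about the family. PINLYP, which was under that minimum in both libraries, had the largest absolute log2 ratio of the 9, -0.83, with 1 count in the resistant and 16 in the parental library. LYPD6 had 61 counts in the resistant and 34 in the parental library, 1.94-fold (1.25 to 3.04), and CD177 18 and 8. LYPD1 had 25 and 14 counts in the resistant and parental libraries. CD59, the complement inhibitor gene and the most abundant of them, was level at 309 CPM in the resistant and 305 CPM in the parental library.

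The chromosomal neighbours are given as a description. For each of the 4 measured genes the 2 nearest measured protein-coding genes on each side were taken, 16 in all. None passed 1.5-fold, beside 8.65% of all measured genes in either direction, a share at which 0 of 16 is no result about the neighbours. Their log2 ratios lay between -0.25 for KCNN4, 95986 bases from PLAUR, and 0.34 for DOCK10, 725771 bases from SERPINE2. The nearest neighbour of PLAT, AP3M2, lies 3560 bases away and had 536 counts in the resistant and 560 in the parental library, 1.04-fold (0.917 to 1.17). MRPL44, 7398 bases from SERPINE2, had 426 and 462 counts in the resistant and parental libraries, 0.997-fold (0.872 to 1.14). CAMK2G next to PLAU and CADM4 next to PLAUR had log2 ratios of -0.04 and -0.09.

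The genes closest to each in level were found by the distance in log2(CPM + 1) over the 2 libraries, which with 2 values is a description of level alone. They were PDE4B and NRM for PLAT, THG1L and MPP1 for SERPINE2, GRINA and NFYC for PLAUR, and AL928654.3 and PCDHB15 for PLAU, at distances between 0.0055 and 0.064. AL928654.3 shares exons with CRIP1 and TEDC1, which together had 664 counts in the resistant and 496 in the parental library. Its log2 ratio was -0.33 alone and 0.48 when summed with them.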

How the data were processed

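Messenger RNA was sequenced from 1 resistant and 1 parental culture, grouped by the treatment labels, and the deposited tables were the starting point. The authors deposited whole-number counts per gene, not normalized, per the file headers, with FPKM beside them and a table of their own log2 fold changes with p-values and q-values. No deposited p-value or q-value is reported, since each group has 1 library. Per the submitters' processing notes, bcl2fastq 2.19, HISAT2 2.0.4 and StringTie 1.3.0 were used on GRCh38. The annotation release, counting settings and strand use are not given in these sources.

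Counts of the whole table were scaled to CPM with TMM factors of 0.997 (resistant) and 1.00 (parental) calculated in R 4.3.3 by edgeR 4.0.16; no model was fitted. Folds are CPM ratios without a pseudocount, with Clopper-Pearson 95% intervals given the sum of the 2 counts. The floor was 3 counts per library. Reads without molecular identifiers are not independent molecules, so intervals and floors cover counting error only. Exons came from GENCODE 29, in which 50111 of 50868 identifiers were found, with identical coordinates for all 6 genes.

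Genes and lists were chosen with earlier results of these data known. The text names all 6 genes, up to 3 genes with the largest absolute log2 ratio per list and its most abundant gene, 4 serpins, chromosomal neighbours and the genes nearest in level. Of these, NDST2, VCL, AP3M1, KAT6A, IKBKB, POLB, ZNF428, SMG9, WDFY1 and CUL3 are covered by the range over neighbours only. Genes described beyond this rule, such as PLGLB1, CDH5, MMP1 and the markers, were named after their values were seen. A few listed genes are not reported here, so the counts and medians of the other inhibitors, the substrates, the serpin family and all listed genes are without them. Scaling, pseudocount, filter, FPKM and summing over overlapping genes were varied. The calculation was tested on simulated data.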

Additional observations from a re-analysis of the deposited data

How the results depend on the processing

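Under 10 alternatives (DESeq2 size factors, upper-quartile factors, total counts with and without mitochondrial genes, pseudocounts of 0.5 and 5 CPM, no filter, a filter of 5 CPM, the deposited FPKM, and sums over genes that share exons) no measured member changed sign and 0 members passed the size rule. Pseudocounts and filters cannot change a sign, and the sums over genes that share exons added no counts to any member. The sign was thus open to change only under the other scaling factors and the FPKM. Relaxing the rule to 1.5-fold gave 2 members, SERPINE2 and PLAT. That count was 1 with DESeq2 size factors, without mitochondrial genes and with a pseudocount of 5 CPM, each time without PLAT, and 0 with the deposited FPKM. With FPKM and a pseudocount of 1 the log2 ratio was 0.39 for PLAT and 0.46 for SERPINE2, since that pseudocount is large beside values near 2. The log2 ratio of SERPINE2 ranged from 0.46 to 0.72, that of PLAT from 0.39 to 0.61, that of PLAUR from -0.10 to -0.07 and that of PLAU from -0.38 to -0.11. PLAU had no value with a filter of 5 CPM. List medians stayed between the median lower and upper bounds of the folds of their genes. These bounds are no interval for a median and are wide for low genes, so staying within them shows little. The median of the promoter-binding factors was -0.0054 with the filter of 5 CPM. Medians of lists with many low genes moved most: without a filter they were 0 for the serpin family and for the other activating proteases, and they ranged from 0.02 to 0.65 for the LY6 family. No paired analysis was possible because each group has 1 library. With 1 library per group, differences between cultures cannot be told apart from the effect of selection, and depth leaves PLAU, PLG and SERPINB2 undecided.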
